A study of Mus musculus with 36 samples.

Results

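GABA-B receptors and their KCTD auxiliary subunits were followed as 6 genes of the 40205 features counted in every library, namely the receptor subunits Gabbr1 and Gabbr2 and the auxiliary subunits Kctd8, Kctd12, Kctd12b and Kctd16. The genes were found by symbol, and the set was chosen on the EV:cell ratios of Kctd16 and Kctd12 under ethanol in these same libraries. Every change of those 2 genes with ethanol is therefore given below as a description with no test, and ethanol was tested only in the other 4 genes. Comparisons of compartments, sexes and cultures include the ethanol libraries unless control libraries are named. The RNA came from wild-type C57BL/6J fetal mouse dorsal telencephalon at gestational day 12.5, the neuroepithelium that forms the isocortex, and per the methods the mice carried the Ai14 reporter allele. Neural stem cells of the female fetuses and of the male fetuses of a pregnancy were pooled separately and grown as floating neurospheres, and 3 pregnancies (sets 3, 4 and 5) gave 3 female and 3 male cultures at passages 7 to 10. Each culture was kept for 5 days in medium with ethanol at 0 mg/dL (control), 120 mg/dL or 320 mg/dL, and at each dose both the cells and the extracellular vesicles (EVs) of the filtered and ultracentrifuged medium were sequenced. This gave 18 EV and 18 cell libraries, in 12 conditions of 3 libraries. No animal is a replicate on its own here, because a culture pools littermates of one sex and its 3 doses come from the same stock of cells.

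The GABA-B receptor is a G protein-coupled receptor for the inhibitory transmitter GABA. It works as an obligate pair, in which the product of Gabbr1 binds GABA and the product of Gabbr2 carries it to the cell surface and engages Gi/o proteins. The freed G protein subunits open inwardly rectifying potassium (GIRK) channels, hold back voltage-gated calcium channels and lower cyclic AMP. KCTD8, KCTD12, KCTD12B and KCTD16 are cytosolic proteins that attach to the tail of GABBR2 and to the G protein and set the kinetics of the response, with KCTD12 and KCTD12B giving fast desensitization. In the developing forebrain GABA acts on progenitors and young neurons before inhibitory synapses form.

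Depth differed widely between the compartments. EV libraries held 959217 to 5509952 gene counts in all, and cell libraries 26566061 to 55282322, so a gene at a given level rested on far fewer reads in EVs. Levels are given as CPM (counts scaled to a common library total of 1e+06) after TMM scaling over all 36 libraries, and log2 CPM carries a prior count of 1. The neural stem cell markers were present in the cells: 7 of 8 listed genes had at least 10 counts in every cell library, with a summed level of 1860 to 4033 CPM in cells and 517 to 1107 CPM in EVs. The exception was Sox2, which was listed at 0 in all 36 libraries. Transcripts listed as markers of other neural cell types were counted too, but single genes made up most of some sums. Neuron markers summed to a median of 803.0 CPM in cells and 234.8 CPM in EVs. Most of this was Map2 (741 and 198 CPM), while Dcx, Tubb3, Stmn2 and Neurod6 held 6.38, 5.87, 0.267 and 0.0200 CPM in cells. The medians were 427.0 and 261.8 CPM for oligodendrocyte lineage markers and 310.4 and 57.8 CPM for astrocyte markers. In cells the oligodendrocyte lineage sum was mostly Olig1 and Olig2 (303 and 103 CPM), with Mbp at 1.72 and Sox10 at 1.14 CPM. For intermediate progenitor markers the medians were 34.9 and 28.1 CPM. Most of this was Btg2 (33.6 CPM in cells), with Eomes at 0.377 and Neurog2 at 0.303 CPM. These sums alone do not show that neurons or intermediate progenitors were present. Microglial markers summed to at most 0.698 CPM in cells and 9.50 CPM in EVs, and endothelial markers to at most 2.67 CPM in cells and 12.3 CPM in EVs. Interneuron markers, the cells best known for making GABA, summed to 5.35 to 29.6 CPM in cells and 6.24 to 19.5 CPM in EVs. The part of these other cell types in the results below was not tested.

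The auxiliary subunits are close relatives, so how far their reads could be confused was examined first. In the GENCODE vM39 annotation of GRCm39, Kctd8 (chromosome 5, 69266628 to 69499057, minus strand), Kctd12 (chromosome 14, 103214017 to 103220073, minus strand) and Kctd12b (chromosome X, 152468150 to 152479387, minus strand) encode proteins of 476, 327 and 292 residues. Kctd12 and Kctd12b each have their whole coding sequence in 1 exon, whereas that of Kctd8 lies in 2. The pairs among the 4 auxiliary subunits share 63.0% to 66.9% of aligned residues and 64.4% to 72.8% of aligned coding bases, against 36.9% of residues between the products of Gabbr1 and Gabbr2. Within the coding sequences, the longest exact run that a pair of the 4 has in common is 14 to 26 bases, and no window of 50 bases is shared by any pair. Untranslated parts were not compared. The windows below lie around a run that Kctd8 and Kctd12 share, and are shown because counts of these paralogues are set side by side throughout. Capitals mark the 24 of 30 bases that are identical in all 3 genes.
Kctd8, chr5:69497752-69497781, minus strand: ggCcGGCTTCCACATGGTgGCgTGCAaCTC
Kctd12, chr14:103218984-103219013, minus strand: gtCgGGCTTCCACATGGTgGCgTGCAgCTC
Kctd12b, chrX:152471894-152471923, minus strand: tgCtGGCTTCCACATGGTaGCaTGCAaCTC

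The windows start at coding base 864 in Kctd8 and Kctd12 and at coding base 765 in Kctd12b. Even here the lower-case bases separate the 3 genes. Despite this kinship, Kctd8 and Kctd12 differed in opposite directions both between EVs and cells and, in EVs, between the sexes.

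Gabbr1 (chromosome 17, 37356703 to 37387265, plus strand) was the most abundant of the 6 transcripts in neural stem cells per exonic length and was lower in their EVs. Between cell libraries, which are bulk RNA, a lower level from fewer expressing cells cannot be told apart from less RNA per cell. In control cells the 6 cultures held 57.9, 106 and 157 CPM of Gabbr1 (lowest, median and highest), and in control EVs 15.0, 17.4 and 38.5 CPM. The groups did not overlap, and the EV counts behind these values were 18 to 158 reads against 3277 to 6502 reads in cells. At 120 mg/dL the cells held 87.1, 110 and 176 CPM and the EVs 14.1, 23.4 and 44.1 CPM. At 320 mg/dL the cells held 107, 141 and 263 CPM and the EVs 16.5, 29.8 and 47.7 CPM. At each dose every EV library lay below every cell library. How many of all genes separate in this way was not counted, here or for the genes and ratios below. Between EVs and cells 82.6% of the 21333 genes tested were called.

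Gabbr2 (chromosome 4, 46662244 to 46991971, minus strand) was present at a low level in every cell library and behaved unevenly in EVs. In cells it held 6.39, 9.95 and 21.5 CPM in controls, 6.56, 13.6 and 23.3 CPM at 120 mg/dL and 6.50, 13.8 and 26.8 CPM at 320 mg/dL. In 14 of the 18 EV libraries it held 12.7 to 39.1 CPM (26 to 104 reads). The other 4 EV libraries stood far above these. The control EVs of the female culture of set 3 held 3745 reads (3354 CPM), those of the male culture of set 3 held 11428 reads (3518 CPM), the female culture of set 4 at 120 mg/dL held 1763 reads (1380 CPM) and the male culture of set 5 at 320 mg/dL held 26248 reads (9428 CPM). These reads were 0.333%, 0.341%, 0.181% and 0.653% of the library in the same order, while the matching cell libraries held 8.02, 6.39, 9.46 and 20.4 CPM. The 4 libraries come from both sexes, all 3 sets and all 3 doses. The same libraries held 18, 49, 18 and 75 reads of Gabbr1, within the range of the other EV libraries. Several Gabbr2 values that rest on the EV libraries are therefore also given without these 4, an alternative chosen after their counts were seen. The culture means, the comparisons of sexes and of cultures in EVs and the ratio change at 320 mg/dL are given only with them.

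**Figure D1:**
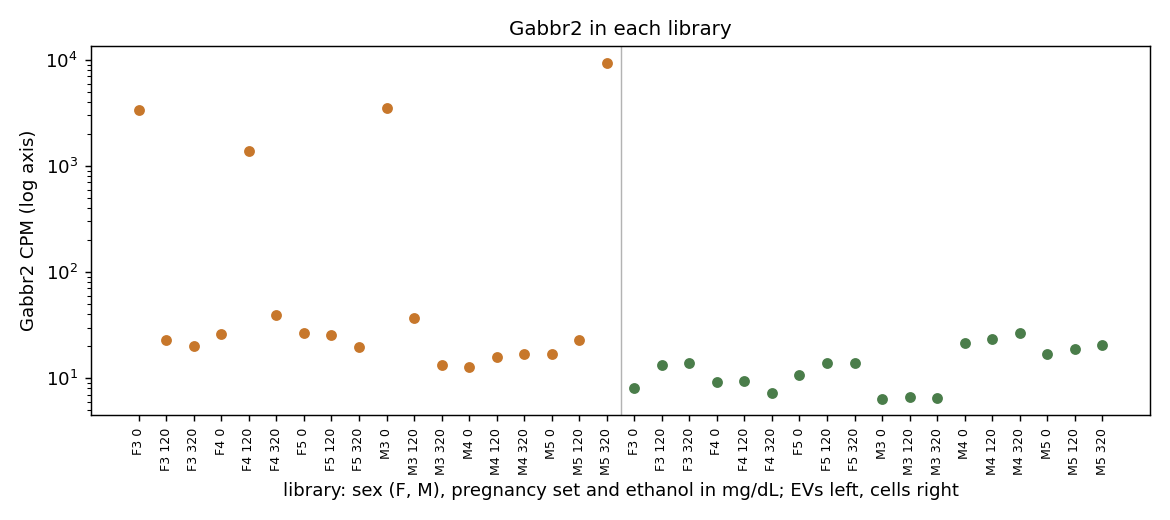
Gabbr2 in CPM on a log axis in each of the 18 EV libraries (orange, left) and 18 cell libraries (green, right), labelled by sex (F, M), pregnancy set and ethanol in mg/dL. 4 EV libraries sit between 1380 and 9428 CPM, and the other 14 between 12.7 and 39.1 CPM, overlapping the cell libraries at 6.39 to 26.8 CPM.

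Of the auxiliary subunits, Kctd12 was the highest in cells per exonic length, with 10.8, 22.6 and 26.9 CPM in controls, 7.19, 22.7 and 27.4 CPM at 120 mg/dL and 6.86, 25.3 and 28.4 CPM at 320 mg/dL. The lowest value at every dose was that of the female culture of set 5, and at each dose its gap to the other 5 cultures exceeded their whole range on the log2 scale. In EVs Kctd12 held 3.00, 10.8 and 12.9 CPM in controls, 3.18, 9.88 and 14.4 CPM at 120 mg/dL and 4.02, 13.0 and 17.6 CPM at 320 mg/dL, from 4 to 65 reads a library. Here the female cultures of sets 4 and 5 were the low ones at every dose.

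Kctd12b, the paralogue on the X chromosome, held 2.76, 5.74 and 12.5 CPM in control cells. At 120 mg/dL the cells held 3.05, 5.27 and 8.90 CPM, and at 320 mg/dL 2.86, 5.34 and 14.3 CPM. The male culture of set 4 was the highest at each dose. In EVs it was at the edge of detection, with 0 to 15 reads a library. In 3 EV libraries no read was counted (the female culture of set 3 in control medium, the female culture of set 4 at 320 mg/dL and the male culture of set 3 at 120 mg/dL), which allows up to 3 reads, or 2.69, 3.09 and 3.92 CPM. These bounds exceed the median of the 18 EV libraries (2.12 CPM), so a loss of Kctd12b from these 3 was not detectable at this depth. Limits of this kind cover counting error only.

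Kctd8 and Kctd16 were scarce in cells and higher in EVs on the CPM scale. Kctd8 held 0.281 to 0.894 CPM in the 18 cell libraries (9 to 44 reads) and 0.731 to 9.49 CPM in the 18 EV libraries (1 to 34 reads). Kctd16 held 0.455 to 2.22 CPM in cells (22 to 110 reads) and 0.923 to 9.78 CPM in EVs (2 to 40 reads). For Kctd8 17 of 18 EV libraries lay above every cell library, and for Kctd16 16 of 18, although single EV values rest on few reads. The share of all genes that separate this far was not counted, so this does not set the 2 genes apart. For Kctd16, a gene of 274.7 kb (chromosome 18, 40390015 to 40664683, plus strand) whose protein has 427 residues, 1484 of its exonic bases lie opposite an antisense transcript (Gm31087). That transcript received 0 to 4 reads in any library. Kctd8 has 1511 exonic bases opposite Gm71588, and Gabbr1 has 800 opposite Gm65720, neither of which is among the counted features. Whether counting used strand is not given in the sources used here.

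**Figure D2:**
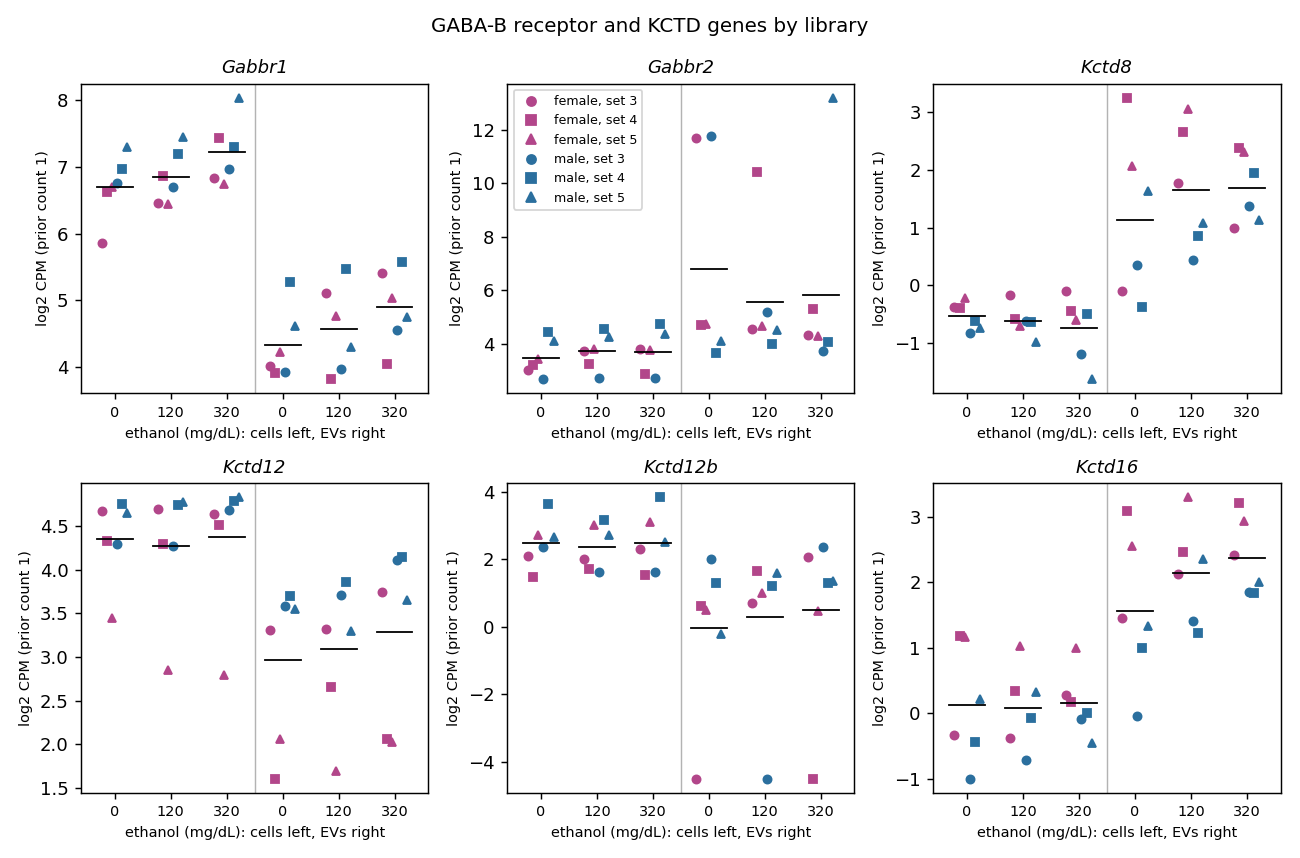
log2 CPM (prior count 1) of the 6 genes in all 36 libraries by compartment and ethanol dose. Each point is a library, with colour for sex, shape for pregnancy set and a bar at the mean of the 6 cultures. Gabbr1, Kctd12 and Kctd12b sit lower in EVs than in cells and Kctd8 and Kctd16 higher, Gabbr2 has 4 EV libraries far above the rest, and the 3 Kctd12b points at the bottom are EV libraries with 0 reads.

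The question of which transcripts are carried into EVs was addressed by comparing EV with cell libraries. Gabbr1 and the KCTD12 pair were lower in EVs, and Kctd8 and Kctd16 were higher. Gabbr1 was at 0.211-fold its cell level (log2 -2.25 ± 0.16 SE), Kctd12 at 0.442-fold (-1.18 ± 0.19) and Kctd12b at 0.360-fold (-1.48 ± 0.27). Kctd8 was 5.35-fold higher in EVs (log2 2.42 ± 0.21) and Kctd16 3.92-fold higher (1.97 ± 0.20). For Gabbr2 the fitted difference was 5.88 ± 0.96 on the log2 scale, but it was 0.61 without the 4 high EV libraries (edgeR adjusted p = 0.00904) and 1.64 with each EV library paired with its cells (adjusted p = 0.0242). All 6 passed edgeR's quasi-likelihood test with 18 libraries a side (largest Benjamini-Hochberg adjusted p = 4.45e-06, for Kctd12b), and DESeq2 called 5 of them and gave no adjusted p for Gabbr2. That count means little on its own, since 82.6% of the 21333 genes tested passed in this comparison. For Kctd12 and Kctd16 the test also includes the ethanol libraries whose ratios chose the set, so their calls here add no support. In size, the difference of Kctd8 lay at percentile 85.6 of all tested genes, that of Kctd16 at 78.0, and that of Gabbr1 at 6.72.

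The same directions were seen culture by culture. With the 3 doses of a culture averaged, EVs minus cells on the log2 CPM scale was -2.33 ± 0.67 for Gabbr1 (SD, n = 6 cultures), -1.22 ± 0.57 for Kctd12 and -2.21 ± 0.34 for Kctd12b, with all 6 cultures below 0. It was 2.12 ± 0.88 for Kctd8 and 1.91 ± 0.31 for Kctd16, with all 6 above 0. A two-sided exact sign-flip permutation test gave p = 0.03125 for Gabbr1, Kctd8 and Kctd12b (0.0375 after adjustment over the 6), the smallest p that 6 cultures allow. Kctd12 and Kctd16 were read in control libraries alone, since their ethanol ratios chose the set. There the difference was -1.39 ± 0.70 and 1.43 ± 0.37 (SD, n = 6 cultures), with p = 0.03125 for each by the same permutation test (adjusted 0.0375). The test takes the 6 cultures as independent, although the female and male cultures of a pregnancy come from littermates. Gabbr2 was higher in the EVs of 5 of 6 cultures (2.42 ± 1.89, exact permutation p = 0.0625, adjusted 0.0625), and the male culture of set 4 had -0.67. These values include the EV libraries high in Gabbr2, which fall in both cultures of set 3, the female culture of set 4 and the male culture of set 5. Kctd16 ran from 1.52 to 2.36 across cultures and Kctd8 from 1.10 to 3.23. The SD of Kctd16 was 0.31 with TMM and 0.47 with library totals, and that of Kctd12b 0.34 with both. For Kctd12b 3 culture means include an EV library with 0 reads, whose low value is set by the prior count. In control libraries alone the SD of Kctd12b was 2.21, so its mean and its evenness across cultures are not reliable. Because the compartments differ in what fills a library, the size of a difference depends on scaling, and with library totals alone the culture means were -2.63 for Gabbr1, 1.83 for Kctd8 and 1.61 for Kctd16, with no change of direction for any of the 6. In the fit over all genes, the median log2 difference moved from 0.05 with TMM to 0.61 with median-of-ratios factors and -0.26 with library totals, and all 6 genes kept their direction under both.

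**Figure D3:**
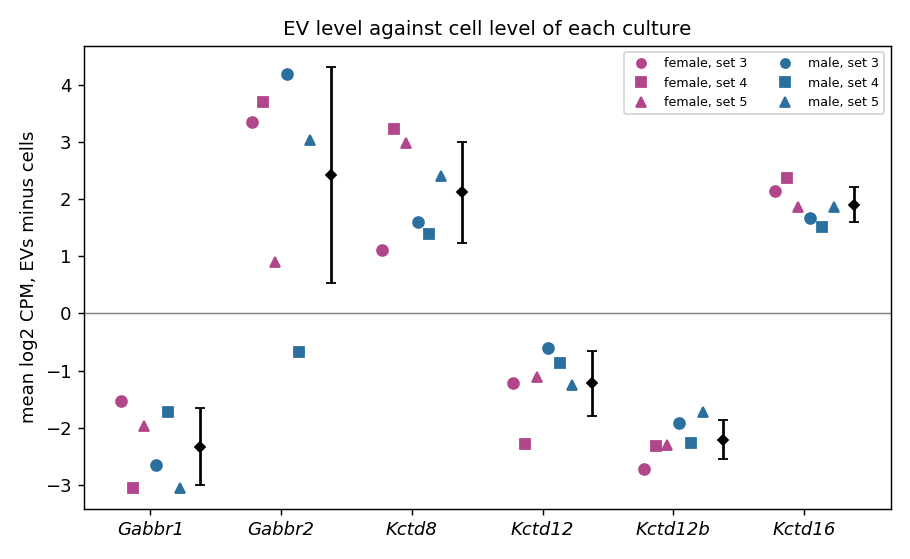
Mean log2 CPM over the 3 doses in EVs minus that in cells for each of the 6 cultures (coloured by sex, shaped by pregnancy set), with the mean and SD of the cultures as a black diamond and bar. The 6 cultures of Gabbr1, Kctd12 and Kctd12b all lie below 0 and those of Kctd8 and Kctd16 all above it, while Gabbr2 spans -0.67 to 4.20.

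To compare levels between genes, CPM was divided by exonic length in kb. In cells the order of the median levels was Gabbr1 (12.3 CPM per kb), Kctd12 (4.14), Gabbr2 (1.63), Kctd12b (1.06), Kctd16 (0.294) and Kctd8 (0.180). The range of Gabbr1 over the cell libraries (6.18 to 28.1 CPM per kb) lay wholly above that of Kctd12 (1.13 to 4.69), whereas each later pair of neighbours in this order overlapped. In the 18 EV libraries the order was Gabbr2 (2.93 CPM per kb), Gabbr1 (2.55), Kctd12 (1.79), Kctd16 (1.19), Kctd8 (0.824) and Kctd12b (0.413), and every pair of neighbours overlapped. Without the 4 EV libraries high in Gabbr2, Gabbr1 (2.75) came before Gabbr2 (2.60), and the order of the other 4 was the same.

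The balance of subunits shifted with it. Within a library, Gabbr2 stood at 0.0477 to 0.195 of Gabbr1 per exonic length in cells (median 0.122) and at 0.373 to 2.69 in the 14 EV libraries without the excess (median 0.773), so the compartments did not overlap. Kctd16 stood at 0.00703 to 0.0614 of Gabbr1 in cells (median 0.0192) and at 0.137 to 1.53 in EVs (median 0.430), again with no overlap. Kctd8 stood at 0.00294 to 0.0347 of Gabbr1 in cells (median 0.0141) and at 0.0522 to 1.74 in EVs (median 0.281). Kctd12 (median 0.277 in cells and 0.545 in EVs) and Kctd12b (0.0808 and 0.124) overlapped between compartments. How often ratios of other genes to Gabbr1 separate the compartments was not counted. Of the counts per exonic length of the 4 auxiliary subunits together, Kctd12 made up a median of 71.8% in cells and 45.5% in EVs, Kctd16 5.19% and 29.3%, and Kctd8 4.04% and 17.4%, while Kctd12b took 11.3% to 47.4% of a cell library and 0% to 23.0% of an EV library. Kctd12 and Kctd12b, the 2 subunits known for desensitization, together made up over 50% in 18 of 18 cell libraries (77.9% to 95.4%) and in 11 of 18 EV libraries. The 11 were all 9 male EV libraries (51.6% to 81.5%) and 2 of the female culture of set 3, whereas the female cultures of sets 4 and 5 had 13.1% to 32.5% in EVs. Exonic lengths are those of GENCODE vM39, and the authors' own annotation may differ from it.

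**Figure D4:**
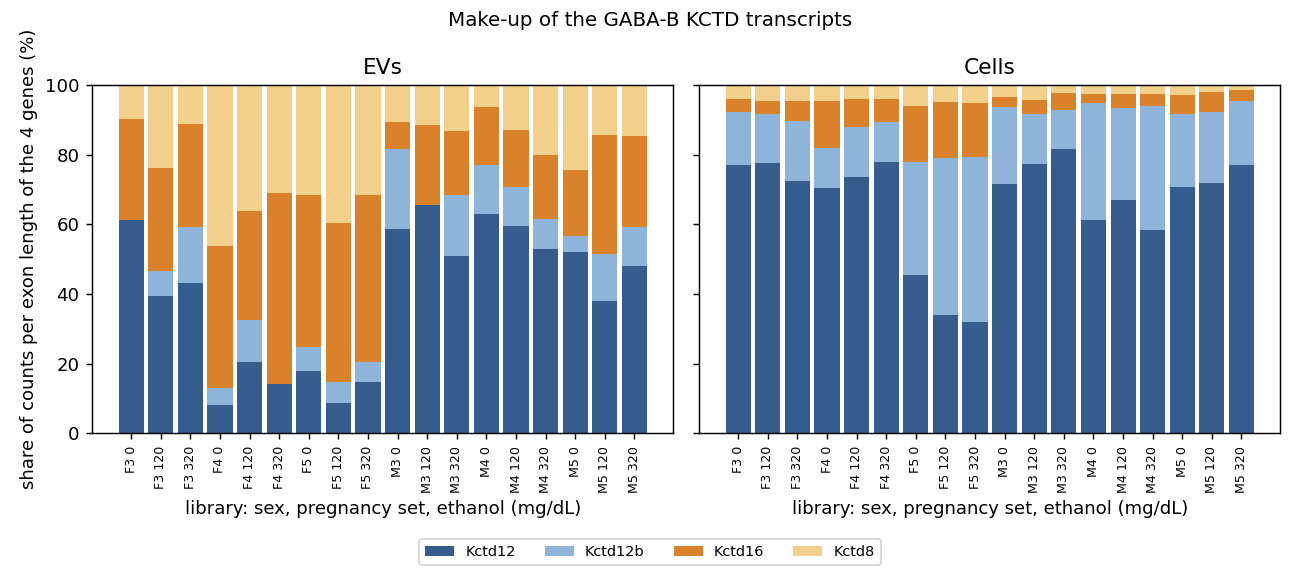
Share of each of the 4 auxiliary subunits in their summed counts per exonic length, in percent, for each EV library (left) and cell library (right), labelled by sex, pregnancy set and ethanol in mg/dL. Kctd12 and Kctd12b fill most of every cell library, and Kctd16 and Kctd8 together take their largest shares in the EVs of the female cultures of sets 4 and 5.

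Cultures differed from each other in most of these genes. In cells all 6 passed the test across the 6 cultures (edgeR quasi-likelihood adjusted p from 1.81e-06 for Gabbr2 to 0.0355 for Kctd8), against 68% of the 18725 genes tested. In EVs 4 of 6 passed (Gabbr1 0.00148, Kctd8 0.00319, Kctd12 0.000181 and Kctd16 0.000622, adjusted p from the same test), against 50.3% of 13193 genes. Gabbr2 (adjusted p = 0.123) and Kctd12b (0.810) did not pass in EVs. These tests treat the 3 doses of a culture as separate libraries, so their p-values measure the spread between doses of a culture. A pair of members followed the same cultures in cells: Gabbr2 and Kctd12b correlated with r = 0.81 over the 18 cell libraries, both being highest in the male culture of set 4, with a median of 23.3 and 12.5 CPM. In EVs Kctd8 and Kctd16 rose and fell together (r = 0.80), and Kctd12 went the other way (r = -0.74 with Kctd16 and -0.73 with Kctd8). These correlations describe 18 libraries that share 6 cultures and carry counting error.

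Sex was compared because each pregnancy gave a female and a male culture. In EVs, females held more Kctd8 and Kctd16 and less Kctd12 than males. Over the 9 female EV libraries Kctd16 held 2.69, 5.85 and 9.78 CPM (lowest, median and highest), and over the 9 male ones 0.923, 2.62 and 5.05 CPM. Kctd8 held 0.896, 4.91 and 9.49 CPM in females and 0.731, 2.08 and 3.80 CPM in males, and Kctd12 3.00, 4.13 and 13.4 CPM in females and 9.80, 12.9 and 17.6 CPM in males. Ranges of the sexes overlapped for all 3 genes. The female cultures of sets 4 and 5 lay outside the male range at each dose, whereas that of set 3 lay within it except for Kctd16 at 320 mg/dL (5.30 CPM). The female to male difference was 2.63-fold for Kctd16 (log2 1.39 ± 0.32 SE, edgeR adjusted p = 0.0156), 2.72-fold for Kctd8 (1.45 ± 0.42, adjusted p = 0.0349) and 0.545-fold for Kctd12 (-0.88 ± 0.22, adjusted p = 0.0220). Thus 3 of 6 passed, against 12.4% of the 13193 genes tested. Markers of other cell types differed in female EVs too: 2 of 6 neuron markers tested were called higher (Snap25 1.70 and Syt1 1.08 on the log2 scale) and 4 did not pass, 1 of 2 interneuron markers was called higher (Gad2), and the 1 intermediate progenitor marker tested was lower (Btg2 -0.56). None of these calls remained with counts summed per culture, and their part in the differences was not tested. Gabbr1 (log2 -0.06, 95% interval -0.52 to 0.40), Gabbr2 (0.02, -4.66 to 4.70) and Kctd12b (-0.32, -1.20 to 0.56) did not pass. With the doses of a culture summed, so that 3 female cultures stood against 3 male ones, none of the 6 passed (0 at adjusted p under 0.05), with log2 differences of 1.51 for Kctd16, 1.59 for Kctd8 and -0.86 for Kctd12 (smallest adjusted p = 0.315 by edgeR). In that fit 0 of 14847 genes passed, so it sets these 6 apart from no others. None of the 6 passed either without set 4 or without set 5, where Kctd16 differed by 1.00 and 1.67 on the log2 scale. Over all genes 405 of 12907 and 3 of 12053 passed in these fits.

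In cells 0 of 6 passed by edgeR for sex (4203 of 18725 genes had an unadjusted p under 0.05, and 5.67% passed after adjustment). DESeq2 called 2 of the 6, Gabbr1 and Kctd16, and 2071 of 20898 genes in all. By edgeR, 3 of the 6 had an unadjusted p under 0.05. The signs were those of the EVs for Kctd16 (log2 0.85 ± 0.26, adjusted p = 0.0659), Kctd8 (0.49 ± 0.17, adjusted p = 0.0915) and Kctd12 (-0.44 ± 0.25, adjusted p = 0.307). Gabbr1 stood at -0.50 ± 0.15 (adjusted p = 0.0656) and Gabbr2 at -0.54 ± 0.28 (adjusted p = 0.270). With the pregnancy set as a block, 3 of 6 passed in cells (Gabbr1 -0.49, Kctd8 0.50 and Kctd16 0.79, adjusted p of 0.0110, 0.0384 and 0.0157 by edgeR). In that fit 3091 of 18725 genes passed. This fit still takes the 3 doses of a culture as separate libraries: with counts summed per culture 0 of 6 passed in cells (0 at an unadjusted p under 0.05, smallest adjusted p = 0.776 by edgeR), and 7 of 20972 genes did. Of the markers in cells, 2 of 6 interneuron markers were called higher in females (Dlx2 1.66 and Lhx6 1.49) and 1 of 4 astrocyte markers lower (S100b -0.81), and their part was not tested. The female to male difference itself was not shown to differ between EVs and cells for any of the 6 (1 had an unadjusted p under 0.05): its smallest adjusted p was 0.262, for Kctd12 (log2 -0.54 ± 0.25), in a fit where 1.26% of 21333 genes passed.

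Ethanol came next, and Kctd16 and Kctd12 are described without a test because their ratios under ethanol chose the set. The EV level of Kctd16 had a median of 2.57 CPM in controls (0.923 to 8.49), 4.68 CPM at 120 mg/dL (2.28 to 9.78) and 4.62 CPM at 320 mg/dL (3.52 to 9.26). At 320 mg/dL the culture lowest in control medium, the male culture of set 3, rose by 1.90 on the log2 scale, and the highest, the female culture of set 4, by 0.12, but with library totals the latter stood at -1.10. In cells the medians were 0.930, 1.06 and 1.02 CPM. Within cultures, the log2 EV:cell ratio of Kctd16 was above control in 5 of 6 cultures at 120 mg/dL (mean 0.63 ± 0.49 SD, n = 6, from -0.14 in the male culture of set 4 to 1.18 in the male culture of set 3) and in 6 of 6 at 320 mg/dL (0.79 ± 0.41, from 0.36 to 1.33). The 320 mg/dL values of the 3 female cultures were 0.36, 1.13 and 0.53, and those of the 3 male cultures 0.99, 0.40 and 1.33, in the order of sets 3, 4 and 5. With library totals the ratio at 320 mg/dL was above control in 5 of 6 cultures (0.64 ± 0.47), with -0.13 in the female culture of set 4. Counts in the EV libraries were 3 to 17 in controls and 7 to 19 at 320 mg/dL, so each culture's ratio carries a large counting error.

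Kctd12 moved less. Its log2 EV:cell ratio was above control in 4 of 6 cultures at 120 mg/dL (mean 0.20 ± 0.48) and in 5 of 6 at 320 mg/dL (0.30 ± 0.25, from -0.07 to 0.61). The EV level alone was above control in 5 of 6 cultures at 320 mg/dL (0.32 ± 0.23), and the cell level differed by 0.02 ± 0.36. At both doses the male culture of set 5 was the one with a ratio below its control (-0.38 and -0.07), while the female culture of set 3 stood at -0.00 at 120 mg/dL. The change of Kctd12 depends on scaling: with library totals alone the fitted EV difference was -0.16 at 120 mg/dL and 0.15 at 320 mg/dL, against 0.11 and 0.39 with TMM, and its ratio was above control in 4 of 6 cultures at each dose (0.05 ± 0.65 and 0.16 ± 0.74). For Kctd16 the fitted EV difference at 320 mg/dL was 0.68 with TMM and 0.38 with library totals.

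The relatives could be tested. Kctd8 had a log2 EV:cell ratio above control in 3 of 6 cultures at 120 mg/dL and 5 of 6 at 320 mg/dL (3 and 4 with library totals), with fitted changes of 0.61 (95% interval -0.30 to 1.52) and 0.63 (-0.29 to 1.55). Kctd12b stood at 0.62 (-0.41 to 1.65) and 0.72 (-0.28 to 1.72), with the 3 libraries without a read among its values. Neither passed at either dose (edgeR adjusted p = 1 for both), and the intervals reach from a small fall to more than the untested change described for Kctd16. Neither likeness to Kctd16 nor contrast with it can therefore be read from these data. Gabbr1 had ratio changes of 0.10 (-0.35 to 0.55) and 0.06 (-0.69 to 0.80), and Gabbr2 of -1.20 (-4.53 to 2.13) and -1.44 (-4.91 to 2.02), neither past the threshold. For the ratio 0 of the 4 passed at 120 mg/dL, where 701 of 21333 genes had an unadjusted p under 0.05 and 0.00938% passed after adjustment. At 320 mg/dL 0 of 4 passed too, with 1055 genes at an unadjusted p under 0.05 and 0% after adjustment. DESeq2 called none of them at either dose, but at 320 mg/dL it gave an adjusted p to only 2 of the 4.

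**Figure D5:**
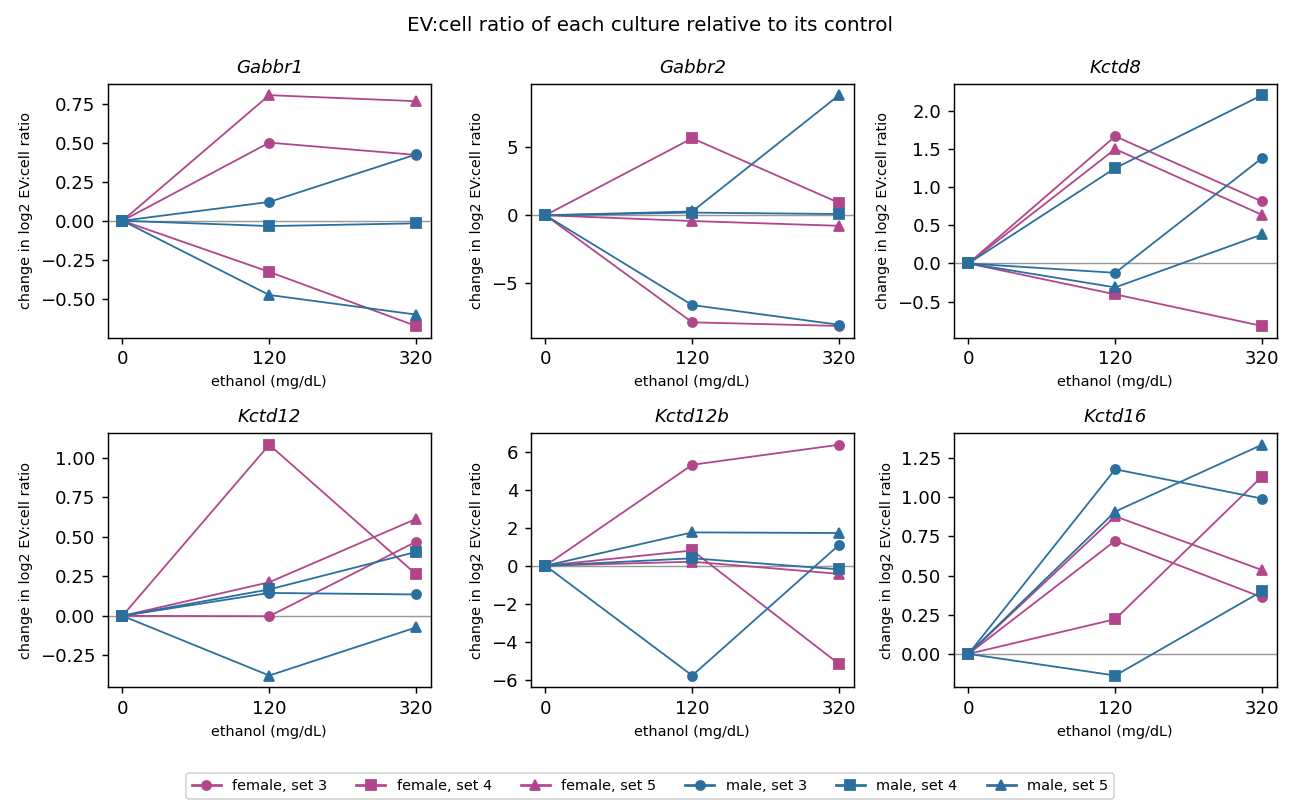
Change in the log2 EV:cell ratio of each culture relative to its own control at 120 and 320 mg/dL ethanol, 1 line per culture coloured by sex and shaped by pregnancy set. With this TMM scaling all 6 lines of Kctd16 end above 0 at 320 mg/dL (5 with library totals), those of Kctd12 in 5 of 6 cultures (4 with library totals), and the wide axes of Gabbr2 and Kctd12b come from the 4 EV libraries with an excess and the 3 with 0 reads.

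Gabbr1 at the upper dose stood above control in every culture and in both compartments with TMM scaling, without passing the test by edgeR. At 320 mg/dL it was above control in the EVs of 6 of 6 cultures (log2 0.13 to 1.40) and in the cells of 6 of 6 (0.04 to 0.98). With library totals these counts were 4 of 6 in EVs (-1.09 in the female culture of set 4 and -0.22 in the male culture of set 5) and 5 of 6 in cells (-0.07 in the female culture of set 5). The fitted change was 1.47-fold in EVs (log2 0.56 ± 0.14 SE) and 1.43-fold in cells (0.51 ± 0.11), and its ratio is given above. Neither passed after adjustment over all genes by edgeR (adjusted p = 0.167 and 0.177), whereas DESeq2 gave an adjusted p of 0.0237 in EVs and 0.00732 in cells. At 120 mg/dL the change was 0.28 ± 0.15 in EVs and 0.14 ± 0.11 in cells, with 4 of 6 cultures above control in each (3 in EVs and 5 in cells with library totals). Gabbr2 in cells was above control in 6 of 6 cultures at 120 mg/dL (5 of 6 with library totals, fitted change 0.24 ± 0.11, adjusted p = 1.00 by edgeR) and in 5 of 6 at 320 mg/dL (0.24 ± 0.11, adjusted p = 0.587). In EVs Gabbr2 could not be read for ethanol, since 2 of its 4 high libraries were controls: its fitted change of -2.57 at 320 mg/dL became 0.08 without them.

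Within a compartment 0 of the 4 tested members passed by edgeR at either dose. At an unadjusted p under 0.05 were 0 of 4 in EVs and 1 of 4 in cells at 120 mg/dL, and 1 of 4 in EVs and 2 of 4 in cells at 320 mg/dL. Both doses are set against the same control libraries. In EVs 0.00758% of 13193 genes passed at 120 mg/dL (784 at an unadjusted p under 0.05) and 0.0758% at 320 mg/dL (1429 unadjusted). In cells 0% of 18725 genes passed at either dose, with 476 and 1575 genes at an unadjusted p under 0.05. DESeq2 called 0 at 120 mg/dL in both compartments and 1, Gabbr1, at 320 mg/dL in both, with an adjusted p for 2 of the 4 in EVs and 4 of 4 in cells. Of the genes to which it gave an adjusted p at 320 mg/dL, it called 267 of 4924 in EVs and 94 of 15720 in cells. At 120 mg/dL it called 13 of 4350 and 4 of 30506. Kctd8 changed in cells by -0.21 (95% interval -0.58 to 0.16) and Kctd12b by -0.01 (-0.33 to 0.32) at 320 mg/dL.

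The rest of the pathway gives the setting. Of 8 effector channel genes (GIRK channels, voltage-gated calcium channels and Hcn2), 6 were called higher in EVs and 1 lower, with a median log2 difference of 2.03 against 0.05 over all genes tested, of which 41.9% were called higher and 40.7% lower. The largest were Cacna1e (2.71), a calcium channel pore, Kcnj6 (2.55), the GIRK2 subunit, and Kcnj5 (2.27), another GIRK subunit, while Cacna1b was lower (-0.38), a call lost with median-of-ratios factors (0.21) and by DESeq2. GIRK transcripts were rare, Kcnj6 with 3 to 44 reads in EVs and 13 to 100 in cells and Kcnj5 with 0 to 4 and 0 to 12. Of the Gi/o and G protein βγ subunits, 2 of 17 tested were called higher and 11 lower (median -0.65). Gng7 (1.57) and Gnao1 (1.34), the Go alpha subunit, were higher, and Gng5 (-2.66), Gnai3 (-2.01) and Gnai1 (-1.78) were lowest relative to cells. Adenylyl cyclases, which make the cyclic AMP that the receptor lowers, had 4 of 10 called higher and none lower. They were led by Adcy5 (2.44), Adcy4 (2.01, with 0 to 3 reads in EVs and 0 to 6 in cells) and Adcy1 (1.49). For the RGS proteins and kinases that end the signal, 2 of 9 were higher, Rgs8 (4.72) and Rgs9 (0.77), and 4 lower, led by Rgs2 (-3.29).

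Among 11 tested proteins that bind the receptor or steer its traffic, 4 were higher in EVs and 7 lower. Jakmip1 (2.39), which links the receptor to microtubules, Ajap1 (2.17), a ligand of the extracellular part of the receptor, and Prrt2 (1.70) were higher, and App (-2.79), Usp14 (-2.55) and Nsf (-1.47) lower. Of the genes for making, moving and breaking down GABA, 2 of 7 were higher and 5 lower. Gad2 (2.07) and Slc6a13 (1.92) were higher, the latter with 0 to 6 reads in EVs and 1 to 19 in cells. Among the 5 lower were the transporter Slc6a11 (-2.01) and Gad1 (-1.85), the other glutamate decarboxylase. Of the other KCTD family members, which mostly serve as adaptors of ubiquitin ligases, 8 of 19 were higher and 10 lower (median -0.50). They ran from Kctd2 (2.23), Kctd19 (1.83, 0 to 6 reads in EVs and 2 to 17 in cells) and Kctd10 (1.82) to Kctd13 (-1.47), Kctd3 (-1.57) and Kctd9 (-1.66). All of these were called by edgeR at an adjusted p under 0.05, in a comparison where most genes were called. Kcnj5, Adcy4, Slc6a13 and Kctd19 reached at most 0.298, 0.150, 0.360 and 0.437 CPM in cells and passed the expression filter through EVs alone. They could enter only as genes high in EVs, so their calls add no support, though the counts and medians above include them. Scarce genes not named here can have entered in the same way, also in the shares over all genes. The split of the lists by direction depends on scaling. With median-of-ratios factors, where 52.7% of all genes were called higher and 29.8% lower, 7 channels were higher and 0 lower, 6 G protein subunits higher and 7 lower, 9 cyclases higher and 0 lower, and 5 RGS proteins and kinases higher and 3 lower. Under the same factors 4 binding partners were higher and 4 lower, 9 other KCTD genes higher and 6 lower, and the GABA genes stayed at 2 and 5. With library totals the counts were 6 and 1 for the channels, 2 and 12 for the G proteins, 4 and 1 for the cyclases, 2 and 6 for the RGS group, 4 and 7 for the partners, 2 and 5 for the GABA genes and 6 and 10 for the other KCTD genes. Of the genes named above with a value, Cacna1b alone changed its call or its sign under these factors, totals or DESeq2.

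Under ethanol none of the pathway genes outside the set passed by edgeR in EVs, in cells or in the ratio, at either dose, and DESeq2 called none of those to which it gave an adjusted p (28 and 30 of 88 in EVs, 86 and 74 in cells, 86 and 17 for the ratio, at 120 and 320 mg/dL). Of the 69 tested in EVs, 3 had an unadjusted edgeR p under 0.05 at 120 mg/dL and 7 at 320 mg/dL. Of the 81 tested in cells, 3 and 12 did, and of the 81 tested for the ratio, 0 and 3. At 320 mg/dL in EVs the medians of the 7 lists ran from -0.13 for the other KCTD genes to 0.20 for the GABA genes, against 0.01 over all genes tested, whose middle 50% spanned -0.17 to 0.19. Between the sexes, 13 of 69 pathway genes passed in EVs and 3 of 81 in cells by edgeR, against 12.4% and 5.67% of all genes tested, with the 3 doses of a culture as separate libraries. With counts summed per culture 0 passed in either (14 of 72 in EVs and 1 of 83 in cells at an unadjusted p under 0.05, smallest adjusted p of 0.315 and 0.722), and with library totals 2 passed in EVs (Cacna1e and Jakmip1). Over all genes, 0 of 14847 in EVs and 7 of 20972 in cells passed with counts summed, and 529 of 13193 in EVs with library totals. Without 1 set, 0 to 20 passed in EVs (0 without set 5, 6 without set 4, 20 without set 3) and 1 to 7 in cells (1 without set 5, 7 without set 4, 6 without set 3). Calls over all genes moved as well, in the same order with 3 of 12053, 405 of 12907 and 3936 of 13830 in EVs. In cells they were 198 of 18718, 1171 of 19189 and 2038 of 18630. DESeq2 called 18 of 78 pathway genes in EVs and 2789 of 18551 genes in all. In the 18 EV libraries, the channels Cacna1e (log2 1.65 ± 0.32, edgeR adjusted p = 0.0114) and Kcnj3 (1.33 ± 0.40, 0.0374) were higher in females. So were Jakmip1 (1.48 ± 0.38, 0.0221), Ddit3 (1.13 ± 0.35, 0.0424), App (0.60 ± 0.15, 0.0221), Gad2 (1.10 ± 0.33, 0.0375), Adcy8 (0.88 ± 0.28, 0.0432) and Rgs7 (0.60 ± 0.17, 0.0302). Lower in female EVs were Gnb4 (-0.96 ± 0.27, 0.0300), Rgs7bp (-0.71 ± 0.21, 0.0349) and 3 other KCTD genes, Kctd10 (-0.95 ± 0.22, 0.0162), Kctd15 (-0.66 ± 0.15, 0.0169) and Kctd5 (-0.54 ± 0.15, 0.0302). In cells edgeR called Cacna1a (0.60 ± 0.16, 0.0311) higher in females and Kctd9 (-0.64 ± 0.15, 0.0209) and Kctd5 (-0.42 ± 0.11, 0.0362) lower. DESeq2 called 10 pathway genes there, these 3 and Aldh5a1, Gnai3, Kctd10, Kctd21, Mpdz, Rgs2 and Rgs4. Over all genes it called 2071 of 20898 in cells.

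The genes most like each member across the 18 libraries of a compartment were also listed, by Pearson correlation of log2 CPM. In cells Gabbr2 was most like Pcsk5 (r = 0.95), Lin7a (0.94) and Marcks (0.93), Kctd12b most like Senp7 (0.96), Resf1 (0.95) and B230354K17Rik (0.95), and Kctd12 most like Nutf2, Zfp747 (0.92 each) and Tmtc3 (0.91). Gabbr1 was most like Desi2 and Tmem65 (0.90 each) and Rsu1 (0.89), Kctd16 most like 1700019D03Rik (0.91), Lix1 and Col26a1 (0.86 each), and Kctd8 most like 4930474G06Rik (0.91), Rtbdn (0.88) and Gm30337 (0.86). In EVs Kctd16 was most like Trpm6 (0.93), Spock3 and Csmd1 (0.92 each), and Kctd12 most like Gpr137 (0.96), Nucks1 (0.95) and Rfx7 (0.94). Gabbr1 in EVs was most like Astn1 (0.86), Ets1 and Ppp2r3d (0.85 each). For Gabbr2 in EVs the list was Ehmt2 (0.93), Cfap61 (0.91) and Lats2 (0.89), but over the 14 libraries without the excess these stood at -0.60, 0.64 and -0.25, so the likeness rests on the 4 high libraries. Kctd8 and Kctd12b averaged under 10 reads in EVs and were not compared there. These points share 6 cultures and a range of depths, and the values are descriptions over 13193 genes in EVs and 18725 in cells.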

How the data were processed

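The deposited files hold raw counts per gene, 1 file a library, which the authors made by trimming and deduplicating paired reads (SeqSense and Trimmomatic), aligning them to mm39 with STAR and counting with HTSeq. The gene annotation and the counting mode and strand are not given in the sources used here, and the library kit marks strand. The 6 genes and all gene lists were chosen with earlier results of these data known.

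From the counts, genes were filtered with edgeR 4.0.16 (minimum count 10, minimum total 15), normalized with TMM factors, and fitted with quasi-likelihood models in R 4.3.3, with calls at a Benjamini-Hochberg adjusted p of 0.05 over all genes tested. The minimum count applies at the median depth of the libraries fitted, so fewer reads suffice in a shallow EV library. EVs and cells were compared with sex and dose as terms, ethanol doses with culture as a block, the EV:cell ratio as a location by dose interaction with EV and cell library paired and a location by culture term, and sexes and cultures with a dose term. SE and intervals were derived from each p and its degrees of freedom. Pairing rests on the source: the 3 doses and both compartments of a culture share the same pooled fetuses. As a check, deviations from the condition means correlated at 0.07 to 0.28 between ethanol and control EV libraries of a culture, 0.34 to 0.80 in cells, and -0.07 to 0.17 between EVs and their cells. Between female and male libraries of a pregnancy they correlated at -0.13 to 0.23 in EVs and -0.44 to 0.51 in cells. Named genes were the 6 members, at most the 3 in each direction with the largest change past the threshold from each list, and the 3 genes most like each member with a mean of at least 10 counts; 1 gene that this rule names is not reported here. Alternatives were DESeq2 1.42.0 without the filter, other scalings, no filter, other blocks and leaving out each pregnancy set. The settings for list counts, for cultures above control and for leaving out the 4 EV libraries high in Gabbr2 were chosen after the data were seen. The functions were tested on simulated data. p-values over libraries of a culture measure the spread between those libraries.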

Additional observations from a re-analysis of the deposited data

Results flagged for a closer look

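A library standing apart from the other 5 of its compartment and dose was looked for in 36 groups, and 8 were found, where chance alone gives about 1 in 20. The values below are the gap to the nearest library as a share of the group's range in log2 CPM. Gabbr2 stood high in the EVs of the female culture of set 4 at 120 mg/dL (0.811, 1763 reads against 28 to 104) and of the male culture of set 5 at 320 mg/dL (0.835, 26248 reads against 26 to 72). In controls 2 libraries were high together, so neither stood alone. Kctd12 stood low in the cells of the female culture of set 5 in control medium (0.652), at 120 mg/dL (0.738) and at 320 mg/dL (0.846). These are 1 culture at its 3 doses. Kctd12b stood low in EVs where no read was counted, in the female culture of set 3 in control medium (0.658), the male culture of set 3 at 120 mg/dL (0.844) and the female culture of set 4 at 320 mg/dL (0.724). Those gaps are set by the prior count, since the other libraries of each group held from 3 or 4 up to 15 reads.

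Kctd16 in cells at 120 mg/dL was below its control in the 3 female cultures and above it in the 3 male ones, with a mean difference of -0.60 on the log2 scale between females and males. This difference was not tested.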

How the results depend on the processing

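Counts of members past the threshold stayed within 1.5 times the main count under most alternatives. For ethanol the exceptions were 1 of 4 in EVs at 120 mg/dL and 1 of 4 at 320 mg/dL without the expression filter (Gabbr2 in both), 1 of 4 at 320 mg/dL by DESeq2 in EVs and 1 of 4 in cells (Gabbr1 in both), and, for the ratio at 320 mg/dL, 0 to 1 of 4 over the fits without one pregnancy set (Gabbr2 -4.08 without set 5). Over all genes, 157 and 207 of 29604 passed in EVs without the filter at 120 and 320 mg/dL. At 320 mg/dL DESeq2 called 267 of 4924 in EVs and 94 of 15720 in cells, and the ratio fit without set 5 called 69 of 21829. Between the sexes in EVs, 3 of 6 became 1 with library totals, 0 with counts summed per culture and 0 to 3 without one set (0 without set 4 or set 5). Over all genes, 529 of 13193 passed with library totals and 0 of 14847 with counts summed. Without sets 3, 4 and 5, 3936 of 13830, 405 of 12907 and 3 of 12053 genes passed. In cells, 0 of 6 became 2 by DESeq2, 1 with library totals, 3 with the pregnancy set as a block and 0 to 2 without one set (2 without set 3). Over all genes, DESeq2 called 2071 of 20898 and library totals gave 1092 of 18725. The block gave 3091 of 18725 and the fit without set 3 gave 2038 of 18630. Of the pathway genes, 13 called between the sexes in EVs became 0 and 3 in cells became 0 with counts summed per culture, and between EVs and cells the 4 cyclases called higher became 9 and the 2 G protein subunits called higher 6 with median-of-ratios factors. The cause of these shifts was not tested.

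Signs turned only in values that had not passed. Leaving out one set at a time, Gabbr2 ranged from -5.45 to 1.84 in EVs at 120 mg/dL, -6.00 to 2.20 in EVs at 320 mg/dL, -3.88 to 1.33 in the ratio at 120 mg/dL, -4.08 to 1.65 in the ratio at 320 mg/dL and -1.63 to 2.05 between the sexes in EVs. Gabbr1 ranged from -0.0044 to 0.25 and -0.060 to 0.23 in the ratio at 120 and 320 mg/dL and -0.45 to 0.47 between the sexes in EVs. Kctd12b ranged from -0.065 to 0.74 in EVs and -0.29 to 0.037 in cells at 120 mg/dL, -0.082 to 0.15 in cells at 320 mg/dL and -1.05 to 0.33 between the sexes in cells. Kctd8 ranged from -0.24 to 0.063 in cells at 120 mg/dL. Without the 4 high EV libraries, Gabbr2 stood at 0.46 and 0.078 in EVs at 120 and 320 mg/dL and 0.27 in the ratio at 120 mg/dL, where Gabbr1 stood at -0.010. With library totals, Gabbr1 stood at -0.058 and -0.068 in the ratio, Kctd8 at -0.045 in EVs at 320 mg/dL and Gabbr2 at -0.13 between the sexes in EVs (-0.14 without a filter). With counts summed per culture the sex difference in EVs was 0.031 for Gabbr1 and -2.02 for Gabbr2.

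With the pregnancy set as a block it was 0.040 for Gabbr1. Without the culture block, Gabbr2 stood at 0.59 in EVs and Kctd12b at 0.10 in cells at 320 mg/dL. Pairing each EV library with its cells as a block kept the count at 6 of 6. Other blocked fits left the counts within 1.5 times. Low EV depth limits Kctd8, Kctd12b and Kctd16, whose EV libraries hold at most 40 reads.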
